A study of Mus musculus with 10 samples.

Results

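This account covers 40 genes of the endothelium and of angiogenesis, chosen by symbol from a table of 24454 entries. They comprise 13 surface and enzyme genes of blood endothelial cells, 5 endothelial receptors, 3 endothelial transcription factors, 2 co-receptors, 4 lymphatic genes, 7 ligands, 2 regulators of angiogenesis and 4 leukocyte adhesion genes. Every one of the 40 passed the filter on low counts, so none was left out. The lowest member count in any library was 14, for Prox1, whose counts ran from 14 to 61.

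RNA was sequenced from treated back skin outside tumors of 5 WT and 5 Zfp36ΔARE mice on a C57BL/6 background. Each library was 1 mouse, and littermates served as the controls. The paper reports papillomas in all control mice and fewer, later tumors in Zfp36ΔARE mice, some of which stayed tumor free. The labels do not give the tumor burden of the mice sequenced. The ΔARE allele lacks an instability element in the 3′-UTR of Zfp36, which encodes the mRNA-destabilizing protein TTP, and it is carried by all cells of the mouse, so no cell type is singled out by the model. Both groups had received the same chemical carcinogenesis protocol from 7 weeks of age: 1 dose of 400 nmol of the carcinogen DMBA in 0.2 ml acetone, then 10 nmol of the tumor promoter TPA in 0.2 ml acetone on 2 days a week for 20 weeks. There was no untreated group, and the whole skin was ground, so each library mixes epidermis, hair follicles, vessels, muscle and fat.

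Endothelial cells line blood and lymphatic vessels, hold together through cadherin and claudin junctions, and respond to growth factors of the VEGF and angiopoietin families through receptor tyrosine kinases on their surface. Lymphatic endothelium is specified by the transcription factor Prox1 and depends on the receptor Flt4, and in inflamed skin the venules display selectins and immunoglobulin-type adhesion molecules that capture leukocytes. TTP binds AU-rich sequences in the 3′-UTRs of certain mRNAs and promotes their decay, and Vegfa mRNA is among the transcripts known to carry such sequences.

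The AU-rich heptamer TATTTAT, which contains the pentamer ATTTA, was sought on the gene strand of each gene's longest annotated 3′-UTR (GENCODE vM21, GRCm38, the assembly also called mm10). The sites of the 2 ligands whose values stand apart from the vessel genes, and of the member with the lowest fitted change, are printed here with 30 bases each, the heptamer in capitals. Vegfa (chromosome 17, 46016993 to 46032369, minus strand) holds 3 heptamers in a 3′-UTR of 1865 bases, at chr17:46017594-46017623, chr17:46017165-46017194 and chr17:46017062-46017091, all in exon 7 of 7. Pgf (chromosome 12, 85166635 to 85177790, minus strand) holds 2 in 776 bases, at chr12:85167336-85167365 and chr12:85167286-85167315, in exon 7 of 7. Sele (chromosome 1, 164048234 to 164057677, plus strand) holds 1 in 937 bases, at chr1:164057149-164057178, in exon 14 of 14.
Vegfa, first site: ttaatttcaacTATTTATgagatgtatctc
Vegfa, middle site: ttgttatcattTATTTATtggtgctactgt
Vegfa, last site: tccgtagtacaTATTTATttttaaacagca
Pgf, first site: cccagctcacgTATTTATtaccgtcaccct
Pgf, last site: tacctaccctcTATTTATtagccgactcgt
Sele site: ggcgtaaataaTATTTATcagcagttttga
The heptamer was found in 15 of the 40 members (37.5%), beside 27.5% of all 20967 protein-coding genes, and the pentamer in 32 members (80%), beside 65.0% of all genes. The median 3′-UTR of the members was 1068 bases, against 954 bases over all genes, so the windows were not of equal length. The transcript with the longest 3′-UTR need not be the one most counted. It had 13 exons for Flt1 and 5 for Vcam1, and its share of the counts was not examined. A match describes the sequence only and does not show that TTP binds there.

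Zfp36 itself was higher in every Zfp36ΔARE library. Its normalized counts (counts scaled by TMM to the mean effective library size) were 2051, 2496, 1824, 2377 and 2011 in WT replicates 1 to 5, and 5781, 5202, 5820.0, 6134 and 4196 in Zfp36ΔARE replicates 1 to 5. The groups did not overlap, and the gene rose 2.52-fold (log2 fold change 1.33 ± 0.12 SE, n = 5 per group; adjusted p = 0.00194 by the quasi-likelihood test of edgeR, Benjamini-Hochberg adjusted over the 15543 genes tested, as for all adjusted p-values of single genes).

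Some libraries stood apart in ways that bear on the vessel genes. Depth ran from 21638369 to 32583189 counts in WT and from 19595024 to 36419553 in Zfp36ΔARE libraries. The summed level of 11 hair shaft genes was 92.5 CPM (counts scaled to the size of the library) in WT replicate 3 and 558 in WT replicate 1, from 2835 to 3798 in the other WT libraries, and from 5859 to 17220 in Zfp36ΔARE libraries. Y-linked genes had at most 1 count in all WT libraries and in Zfp36ΔARE replicate 1, and from 3349 to 4262 counts in Zfp36ΔARE replicates 2 to 5, so that sex and genotype cannot be told apart in those 4 libraries. The counts of members were therefore repeated without WT replicates 1 and 3, and with Zfp36ΔARE replicate 1 by itself against WT. Each call at an adjusted p under 0.05 that ended without WT replicates 1 and 3 is given beside its gene. Of the calls that also require a fold change over 2, only that of Sele remained without them. Markers of the labeled tissue were present, as 8 basal keratinocyte genes summed to between 7253 and 13680 CPM in each of the 10 libraries.

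Blood vessel genes were lower in Zfp36ΔARE skin (19 of 21 passed the test). Of the 7 ligands that act on vessels, 5 did not pass, though 6 of the 7 had fitted values below 0 (class median -0.50). The difference between these classes was not tested. Among the 40 members, 28 (70.0%) fell with an adjusted p under 0.05, beside 19.1% of all genes tested. Only 1 member, Pgf, rose, beside 15.3% of all genes. With a fold change over 2 required as well, 12 members (30%) were lower, beside 6.64% of all genes, and 0 were higher in edgeR, DESeq2 or limma-voom, beside 1.67% (1 member, Pgf, was higher at an unadjusted p under 0.05). The 12 were Pecam1, Esam, Nos3, S1pr1, Vwf, Kdr, Tek, Sox18, Nrp1, Lyve1, Flt4 and Sele. In 21 members (52.5%) every Zfp36ΔARE library lay below every WT library, beside 11.9% of all genes, and in none above, beside 11.2%. The median log2 fold change was -0.82 over the members and 0.01 over all genes. In bulk skin, fewer endothelial cells and less RNA of these genes per cell cannot be told apart.

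These counts rested in part on the WT libraries with low hair shaft levels. WT replicate 3 had the highest WT value of 33 of the 40 members. WT replicates 1 and 3 also had the highest WT sums of skeletal muscle genes (22710 and 42960 CPM) and adipocyte genes (3357 and 4543 CPM). The other WT libraries ran from 9114 to 18328 CPM and from 2217 to 2514 CPM. Which of these differences bears on the members was not tested. Without WT replicates 1 and 3, 18 of the 40 members were lower with an adjusted p under 0.05, beside 9.06% of all genes, none was higher by that test in edgeR (Pgf was, at an unadjusted p under 0.05), beside 6.87%, and 37 fitted values were below 0, as with all libraries. Just 1 of the 40 (Sele) was lower by more than 2-fold as well, beside 2.11% of all genes, a share near the background. The 10 members that fell with all libraries but not without these were Emcn, Icam2, Flt1, Sox17, Erg, Prox1, Lyve1, Angpt1, Icam1 and Vcam1. With the hair shaft score as a covariate, 0 members passed in edgeR, with 13 lower at an unadjusted p under 0.05 (8.76% of all genes) and a smallest adjusted p of 0.0692. In that fit 0.0708% of all genes were lower and 0.0129% higher with an adjusted p under 0.05, and 0.045% lower with a fold over 2, so few genes of any kind passed, and the score itself did not overlap between the groups. Zfp36ΔARE replicate 1, the library of that genotype without Y-linked counts, lay below all 5 WT libraries in 31 of the 40 members, beside 30.4% of all genes. As a single library against 5 it gave no gene of the 16373 tested past the adjusted threshold in edgeR, members included, and 14 members lower at an unadjusted p under 0.05, beside 9.87% of all genes. The fitted log2 fold changes for that library were -1.06 for Cdh5, -1.14 for Kdr, -0.83 for Flt4, -1.27 for Sele, -0.17 for Vegfa and 0.87 for Pgf.

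**Figure D1:**
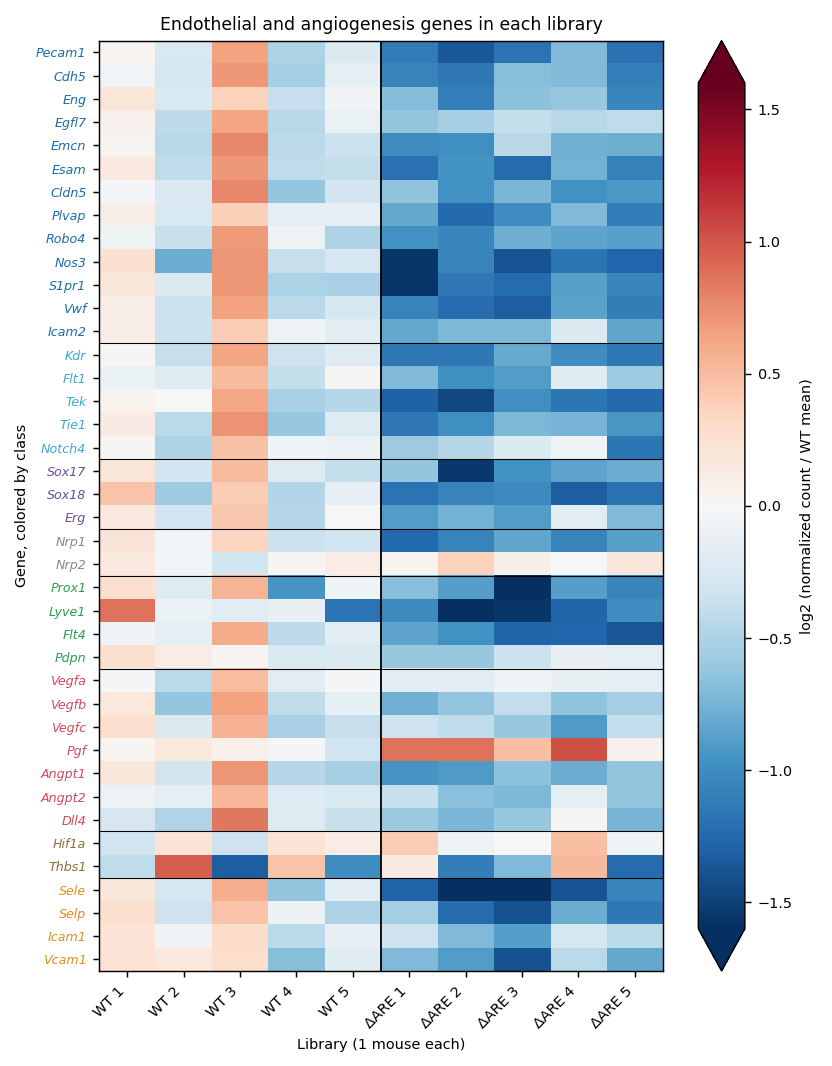
Log2 ratio of each member's normalized count to its WT mean (color scale), by gene (vertical axis, grouped and colored by class) and library (horizontal axis, 1 mouse each). Blue fills most vessel genes in all 5 Zfp36ΔARE libraries, WT 3 is the reddest column, and Pgf is red in most Zfp36ΔARE libraries.

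Of the 13 surface and enzyme genes of blood endothelium, 12 fell, with a class median log2 fold change of -0.92. With all libraries, 5 of them fell by more than 2-fold. Without WT replicates 1 and 3 those 5 lay between -0.63 (Esam) and -0.82 (Nos3), short of 2-fold. Cdh5 encodes VE-cadherin, the adherens junction protein of endothelium. Its normalized counts were 1114, 952, 1857, 794 and 1031 in WT replicates 1 to 5, and 548, 519.6, 719, 705 and 538 in Zfp36ΔARE replicates 1 to 5. The lowest WT value, in replicate 4, was above the highest Zfp36ΔARE value, in replicate 3, and WT replicate 3 was far above the other WT libraries. Cdh5 fell to 52.7% of its WT level (log2 fold change -0.92 ± 0.21 SE, adjusted p = 0.0120). Without WT replicates 1 and 3 the value was -0.61 (adjusted p = 0.0213).

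Pecam1 encodes CD31, an adhesion molecule between endothelial cells. It was counted at 2217, 1813, 3368, 1525 and 1826 in WT replicates 1 to 5, and at 989, 840.1, 947, 1320.5 and 938 in Zfp36ΔARE replicates 1 to 5. The groups were separate, with Zfp36ΔARE replicate 4 the closest to WT. Pecam1 fell to 46.8% of WT (log2 fold change -1.09 ± 0.21 SE, adjusted p = 0.00724).

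Nos3, the endothelial nitric oxide synthase, had the lowest fitted value of the class and Egfl7, a secreted endothelial protein, the one nearest to 0. Nos3 counts were 427, 209, 592, 281 and 301 in WT replicates 1 to 5, and 124, 175, 139, 162 and 150.3 in Zfp36ΔARE replicates 1 to 5. All 5 Zfp36ΔARE libraries lay below WT replicate 2, the lowest of the WT libraries, and Nos3 fell to 41.5% of WT (log2 fold change -1.27 ± 0.25 SE, adjusted p = 0.00814). Egfl7 counts were 589, 421, 870.0, 414 and 525 in WT replicates 1 to 5, and 369, 391, 434, 414 and 427 in Zfp36ΔARE replicates 1 to 5. The groups overlapped, since WT replicates 2 and 4 were within the range of the Zfp36ΔARE libraries, and the test was not passed (log2 fold change -0.47, 95% interval -0.88 to -0.06, adjusted p = 0.0729).

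The other surface genes ranged from -0.64 for Icam2, an adhesion molecule of resting endothelium, to -1.15 for S1pr1, the sphingosine-1-phosphate receptor. In between lay the fenestral diaphragm protein Plvap (-0.96 ± 0.14 SE, adjusted p = 0.00408), the TGF-β co-receptor Eng (-0.80), the tight junction genes Esam (-1.03) and Cldn5 (-0.83), the sialomucin Emcn (-0.78), the guidance receptor Robo4 (-0.90) and the clotting protein Vwf (-1.11). Emcn missed the threshold when any 1 of WT replicate 1 and Zfp36ΔARE replicates 1, 2, 4 and 5 was left out, Icam2 without WT replicate 1 or Zfp36ΔARE replicate 2, and Cldn5 without Zfp36ΔARE replicate 2 (adjusted p up to 0.0724, 0.0530 and 0.0542). Without both WT replicates 1 and 3, Emcn (-0.38, adjusted p = 0.0998) and Icam2 (-0.45, adjusted p = 0.118) did not pass. Per length, Plvap was the most abundant of the class, at 29.1 ± 5.4 (SD) FPKM (fragments per kilobase of gene, scaled to the size of the library) in WT and 14.95 ± 2.2 in Zfp36ΔARE skin. Across the 21 blood endothelial genes (surface, receptors and transcription factors), the summed level ran from 427 to 848 CPM in WT and from 260.0 to 346 CPM in Zfp36ΔARE libraries, without overlap.

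**Figure D2:**
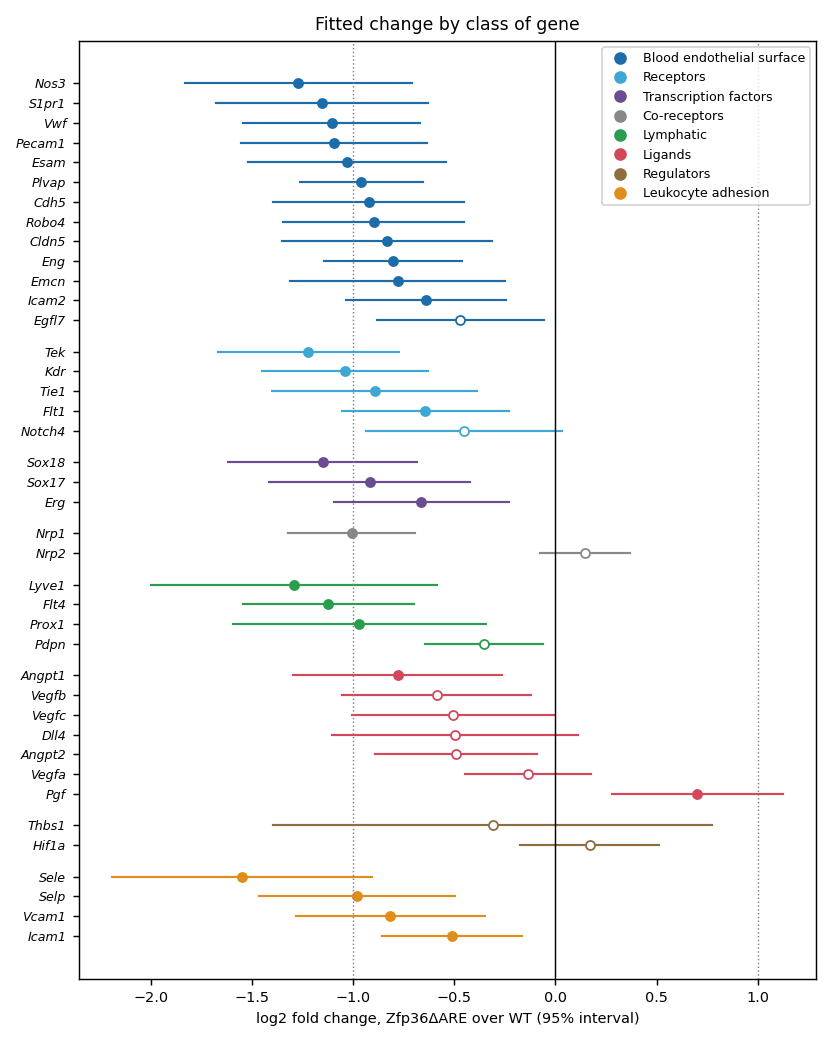
Fitted log2 fold change of each member, Zfp36ΔARE over WT (points), with 95% intervals (bars), grouped by class; filled points passed an adjusted p under 0.05, open points did not, and dotted lines mark 2-fold. Vessel genes lie left of 0 from -0.45 to -1.27, whereas the ligands spread from -0.78 for Angpt1 to 0.70 for Pgf.

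Among the 5 endothelial receptors, 4 fell, 2 of them by more than 2-fold with all libraries, and the class median was -0.89. Without WT replicates 1 and 3 those 2, Kdr (-0.74) and Tek (-0.91), were short of 2-fold. Kdr is VEGFR2, the main signaling receptor for Vegfa. Its normalized counts were 797, 607, 1219, 626 and 684 in WT replicates 1 to 5, and 355, 356, 451, 394 and 356 in Zfp36ΔARE replicates 1 to 5. The groups did not overlap, and the Zfp36ΔARE libraries varied little. Kdr fell to 48.7% of WT (log2 fold change -1.04 ± 0.19 SE, adjusted p = 0.00636), with -0.74 (adjusted p = 0.00521) without WT replicates 1 and 3.

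Tek, the angiopoietin receptor also called Tie2, had the lowest value of the receptors. It was counted at 953, 909, 1402, 637 and 668 in WT replicates 1 to 5, and at 372, 333, 461, 409 and 385 in Zfp36ΔARE replicates 1 to 5. No Zfp36ΔARE library reached the lowest WT library, and Tek fell to 42.9% of WT (log2 fold change -1.22 ± 0.20 SE, adjusted p = 0.00531). Its relative Tie1 (-0.89) and the VEGF receptor Flt1 (-0.64), which binds Vegfa, Vegfb and Pgf, fell as well. Flt1 overlapped between the groups, as Zfp36ΔARE replicate 4 was at 955, above WT replicates 2 and 4 at 949 and 839.5, and it missed the threshold without 1 of Zfp36ΔARE replicates 1 to 3 (adjusted p up to 0.0604) or without both WT replicates 1 and 3 (-0.46, adjusted p = 0.101).

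Notch4, an endothelial Notch receptor, was the receptor nearest to 0. Its counts were 187, 131, 256, 177 and 172 in WT replicates 1 to 5, and 123, 134, 158, 176 and 83.1 in Zfp36ΔARE replicates 1 to 5. The groups overlapped, and the fitted value did not pass (-0.45, 95% interval -0.93 to 0.03, adjusted p = 0.129).

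All 3 transcription factors of endothelial identity fell, Sox17 (-0.92), Sox18 and Erg, with a class median of -0.92. Sox17 did not pass without WT replicates 1 and 3 (-0.63, adjusted p = 0.0689). Sox18 was at 310.4, 153, 300.2, 164 and 206 in WT replicates 1 to 5, and at 99.7, 108, 112, 90.8 and 98.9 in Zfp36ΔARE replicates 1 to 5. The Zfp36ΔARE libraries were close together and all below WT. Sox18 fell to 45.1% of WT (log2 fold change -1.15 ± 0.21 SE, adjusted p = 0.00676). Without WT replicates 1 and 3 its value was -0.775 (adjusted p = 0.0119). Erg was at 269.8, 195, 326, 176 and 240.4 in WT replicates 1 to 5, and at 130.4, 143, 129.6, 212 and 148 in Zfp36ΔARE replicates 1 to 5. Zfp36ΔARE replicate 4 lay among the WT values, the other 4 below them, and Erg fell to 63.1% of WT (-0.66 ± 0.20 SE, adjusted p = 0.0270). Erg no longer passed without WT replicates 1 and 3 (-0.42, adjusted p = 0.151), nor when any 1 of WT replicates 1 and 3 or Zfp36ΔARE replicates 1 to 3 was left out (adjusted p up to 0.0625).

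The 2 neuropilins, co-receptors for VEGF, differed from each other. Nrp1 counts were 2208, 1863, 2438, 1512 and 1551 in WT replicates 1 to 5, and 807, 916, 1074, 919 and 1051 in Zfp36ΔARE replicates 1 to 5. The groups were widely separate, and Nrp1 fell to 49.8% of WT (log2 fold change -1.01 ± 0.14 SE, adjusted p = 0.00404). Without WT replicates 1 and 3 its value was -0.79 (adjusted p = 0.00521). Nrp2, which also binds the lymphatic ligand Vegfc, was at 3910, 3387, 2805, 3603 and 3802 in WT replicates 1 to 5, and at 3634, 4534, 3728, 3505 and 3980 in Zfp36ΔARE replicates 1 to 5. Its groups overlapped, and the fitted value of 0.15 (95% interval -0.08 to 0.37) did not pass (adjusted p = 0.269). The 95% intervals of the neuropilins, with Nrp1 at -1.32 to -0.69, did not meet, but the difference between them was not tested.

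**Figure D3:**
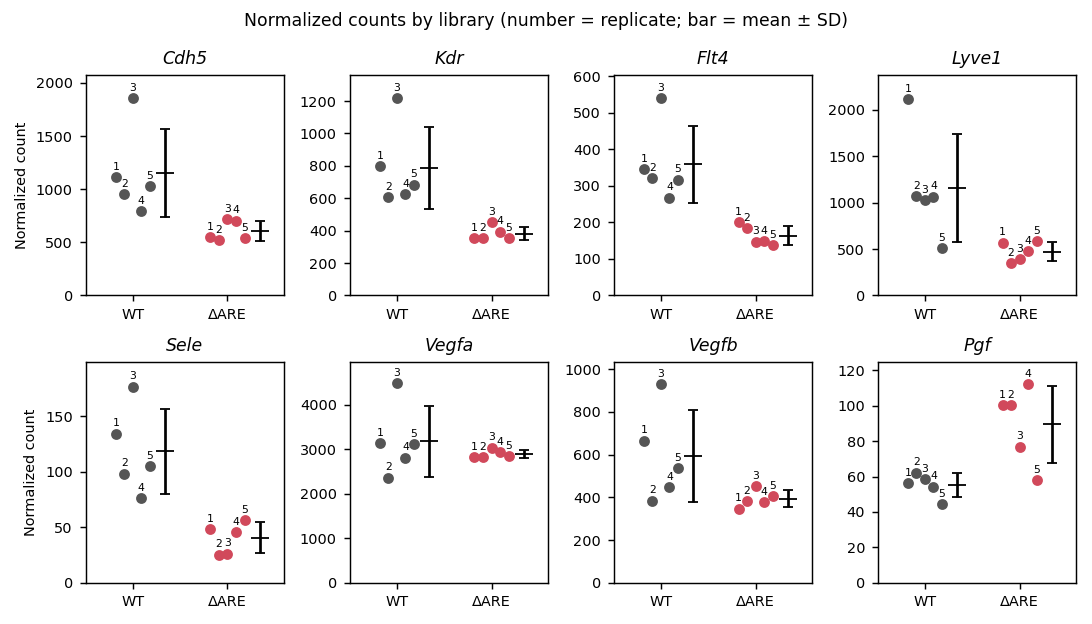
Normalized count (vertical axis, linear from 0) of 8 members in each library, numbered by replicate, for WT (gray) and Zfp36ΔARE (red) mice, with the mean ± SD (n = 5). Cdh5, Kdr, Flt4 and Sele do not overlap between the groups, Lyve1, Vegfa, Vegfb and Pgf do, and WT 3 or WT 1 is the highest WT library in each panel except Pgf.

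Of the 4 lymphatic genes, 3 fell, and the class median was -1.05. Flt4 encodes VEGFR3, the receptor for Vegfc in lymphatic endothelium. Its normalized counts were 345, 321, 539, 268 and 317 in WT replicates 1 to 5, and 200.1, 184, 147, 148 and 138 in Zfp36ΔARE replicates 1 to 5. The groups did not overlap, and Flt4 fell to 45.9% of WT (log2 fold change -1.12 ± 0.19 SE, adjusted p = 0.00544), or -0.88 (adjusted p = 0.00819) without WT replicates 1 and 3.

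Lyve1, a hyaluronan receptor of lymphatic endothelium that some tissue macrophages also carry, was at 2115, 1072, 1024, 1065 and 509 in WT replicates 1 to 5, and at 569.5, 345, 393, 474 and 582 in Zfp36ΔARE replicates 1 to 5. WT replicate 1 was far above and WT replicate 5 lay within the Zfp36ΔARE range. Lyve1 fell to 40.8% of WT (log2 fold change -1.29 ± 0.32 SE, adjusted p = 0.0151), and did not pass without WT replicates 1 and 3 (-0.90, adjusted p = 0.0512). Of 12 macrophage genes, 10 fell and 1 (Maf) rose, with a median of -1.33 and a summed level of 738 to 1401 CPM in WT and 461 to 610.5 CPM in Zfp36ΔARE libraries, and their part in the Lyve1 value was not tested.

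Prox1, the transcription factor that specifies lymphatic endothelium, was the scarcest member. It was counted at 56.2, 40.4, 68.3, 24.3 and 44.4 in WT replicates 1 to 5, and at 29.2, 25.4, 15.4, 25.4 and 22.4 in Zfp36ΔARE replicates 1 to 5. WT replicate 4 fell among the Zfp36ΔARE libraries. Prox1 fell to 51.1% of WT (log2 fold change -0.97 ± 0.28 SE, adjusted p = 0.0259), and did not pass without WT replicates 1 and 3 (-0.62, adjusted p = 0.155). It also missed the threshold when 1 of WT replicates 1 and 3 or Zfp36ΔARE replicates 2 and 3 was left out (adjusted p up to 0.0618).

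Pdpn encodes podoplanin, which keratinocytes and fibroblasts of treated skin can also express. Its counts were 1069, 974, 922, 755 and 760.4 in WT replicates 1 to 5, and 590.5, 588, 705, 822 and 807 in Zfp36ΔARE replicates 1 to 5. The groups overlapped, and the value of -0.35 (95% interval -0.65 to -0.06) did not pass (adjusted p = 0.0592).

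Whether lymphatic genes moved more than the blood vessel gene Cdh5 was examined through log2 ratios of raw counts within a library (0.5 added to each count), which do not depend on scaling. The exact two-sided permutation test of 5 against 5 libraries can reach a smallest p of 0.00794, and p-values were adjusted over 8 ratios. The ratio of Prox1 to Cdh5 was -4.63 ± 0.27 (SD) in WT and -4.67 ± 0.51 in Zfp36ΔARE libraries (exact permutation test, p = 0.873, adjusted p = 0.905). For Flt4 to Cdh5 it was -1.66 ± 0.09 and -1.89 ± 0.40 (difference -0.23, exact permutation test, p = 0.262, adjusted p = 0.524). For Lyve1 to Cdh5 it was -0.07 ± 0.84 and -0.37 ± 0.43 (difference -0.30, exact permutation test, p = 0.516, adjusted p = 0.825). In each of these 3 ratios the groups overlapped and the difference was smaller than the larger SD, so a shift of these lymphatic genes relative to Cdh5 was not detectable with these libraries.

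**Figure D4:**
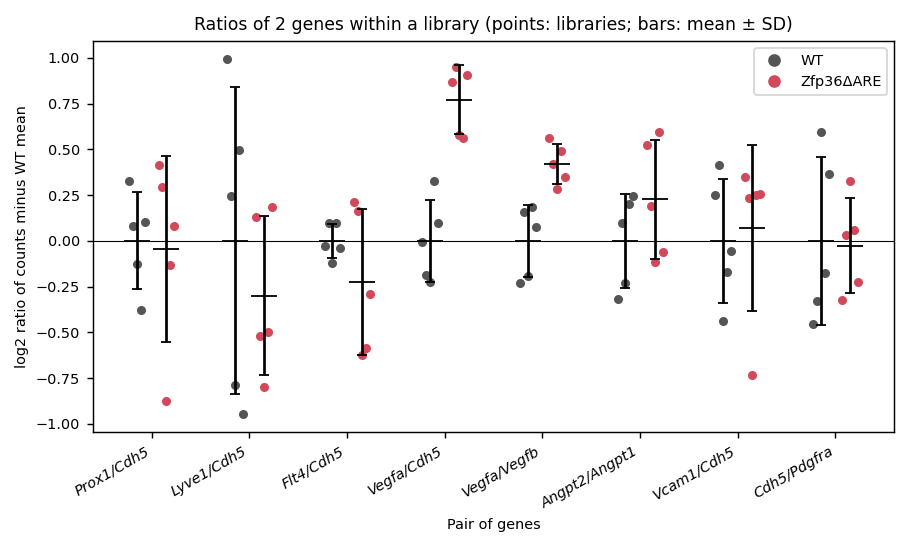
Log2 ratio of raw counts for 8 pairs of genes (horizontal axis) in each library, less the WT mean of that pair (vertical axis), with mean ± SD bars (n = 5 per group). The groups are separate for Vegfa over Cdh5 (difference 0.77) and Vegfa over Vegfb (0.42) and overlap in the other 6 pairs.

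The 7 ligands had a class median of -0.50, with 1 that fell (Angpt1), 1 that rose (Pgf) and 5 that did not pass. Vegfa is the growth factor through which tissues call for vessels, and it has the AU-rich sites shown above. Its normalized counts were 3132, 2359, 4486, 2807 and 3109 in WT replicates 1 to 5, and 2818, 2829, 3035, 2933 and 2851 in Zfp36ΔARE replicates 1 to 5. The Zfp36ΔARE libraries lay close together inside the WT range, with WT replicate 3 far above them and WT replicate 2 below. The fitted log2 fold change was -0.14 (95% interval -0.45 to 0.18) and did not pass (adjusted p = 0.467). It became 0.02 without WT replicate 3 and 0.07 without WT replicates 1 and 3. The sign thus depended on which WT libraries were used, while a change of 2-fold either way lay outside the interval.

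Relative to Cdh5, the vessel gene used for the ratio, Vegfa transcripts were more frequent in Zfp36ΔARE skin. As Cdh5 fell (-0.92) and Vegfa did not pass (-0.14), the ratio does not show a rise of Vegfa itself. Which cells made Vegfa was not tested, and the ratio does not remove differences in the makeup of the skin between libraries. The log2 ratio of Vegfa to Cdh5 was 1.82 in WT replicate 4, the highest of the WT libraries, and 2.06 in Zfp36ΔARE replicate 4, the lowest of the other group. Its mean was 1.5 ± 0.22 (SD) in WT and 2.27 ± 0.19 in Zfp36ΔARE libraries, a difference of 0.77 (exact permutation test, p = 0.00794, the smallest it can give, adjusted p = 0.0317). Without WT replicates 1 and 3, where fewer libraries raise the smallest p the test can give, the difference was 0.69 (exact permutation test, adjusted p = 0.0714).

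Vegfb, a relative of Vegfa that binds Flt1, has neither the pentamer nor the heptamer in its 417-base 3′-UTR. It was at 666, 384, 929, 447 and 535 in WT replicates 1 to 5, and at 347, 384, 452, 379 and 406 in Zfp36ΔARE replicates 1 to 5. The groups overlapped, and the value of -0.59 (95% interval -1.06 to -0.12) missed the threshold (adjusted p = 0.0534), though DESeq2 put it below (adjusted p = 0.0277). Without WT replicates 1 and 3 the value was -0.21 (adjusted p = 0.275). The log2 ratio of Vegfa to Vegfb was 2.46 ± 0.20 (SD) in WT and 2.88 ± 0.11 in Zfp36ΔARE libraries, without overlap (difference 0.42, exact permutation test, p = 0.00794, adjusted p = 0.0317). That difference was 0.28 without WT replicates 1 and 3 (exact permutation test, adjusted p = 0.0714).

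Pgf, placental growth factor, is another ligand of Flt1, and its sites are shown above. Its counts were 56.2, 62.2, 58.6, 54.4 and 44.4 in WT replicates 1 to 5, and 100.4, 100.5, 76.9, 112 and 58.0 in Zfp36ΔARE replicates 1 to 5. In Zfp36ΔARE skin 4 libraries were above all WT libraries and replicate 5 lay within the WT range. Pgf rose 1.63-fold (log2 fold change 0.70 ± 0.19 SE, adjusted p = 0.0207), from 1.23 ± 0.15 (SD) to 1.996 ± 0.49 FPKM, a low level in both groups. It no longer passed without Zfp36ΔARE replicate 2 (adjusted p = 0.0511) or without WT replicates 1 and 3 (0.74, adjusted p = 0.0607).

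Angpt1, the ligand that activates Tek, was the lowest of the ligands. Its counts were 225, 161, 322, 144 and 136 in WT replicates 1 to 5, and 103, 105, 125, 113 and 128 in Zfp36ΔARE replicates 1 to 5. The groups did not overlap, and Angpt1 fell to 58.2% of WT (log2 fold change -0.78 ± 0.23 SE, adjusted p = 0.0278). It did not pass without WT replicates 1 and 3 (-0.36, adjusted p = 0.0910), nor without 1 of WT replicate 1 and Zfp36ΔARE replicates 1 and 2 (adjusted p up to 0.0639). Angpt2, which competes with Angpt1 at Tek and is stored in endothelial cells, had a value of -0.49 (95% interval -0.89 to -0.09, adjusted p = 0.0566). The log2 ratio of Angpt2 to Angpt1 was -0.29 ± 0.26 (SD) in WT and -0.06 ± 0.33 in Zfp36ΔARE libraries (exact permutation test, p = 0.254, adjusted p = 0.524). Neither Vegfc, the ligand of Flt4 (-0.51, adjusted p = 0.102), nor Dll4, the Notch ligand of tip cells (-0.50, adjusted p = 0.175), passed the test.

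The 2 regulators did not pass. Hif1a encodes the hypoxia-inducible subunit that drives Vegfa transcription, and its normalized counts were 3152, 4548, 3115, 4552 and 4251 in WT replicates 1 to 5, and 5179, 3722, 3916, 5462 and 3788 in Zfp36ΔARE replicates 1 to 5. The groups overlapped (log2 fold change 0.17, 95% interval -0.17 to 0.51, adjusted p = 0.407). Thbs1, thrombospondin 1, an inhibitor of angiogenesis, was at 5461, 14173, 2886, 9917 and 3631 in WT replicates 1 to 5, and at 7911, 3362, 4421, 10314 and 3074 in Zfp36ΔARE replicates 1 to 5. The WT libraries by themselves spanned the whole range, and the interval of its value was wide (-0.31, 95% interval -1.40 to 0.77, adjusted p = 0.638).

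The 4 leukocyte adhesion genes of activated endothelium all fell, with a class median of -0.90. Sele encodes E-selectin, which is made by activated endothelium and slows rolling leukocytes, and it had the lowest value of all 40 members. Its normalized counts were 134, 98.5, 177, 76.7 and 105 in WT replicates 1 to 5, and 48.7, 25.4, 26.4, 45.4 and 56.7 in Zfp36ΔARE replicates 1 to 5. No Zfp36ΔARE library reached WT replicate 4, the lowest of the WT libraries, and Sele fell to 34.2% of WT (log2 fold change -1.55 ± 0.29 SE, adjusted p = 0.00705). Without WT replicates 1 and 3 Sele stayed past both thresholds (-1.21, adjusted p = 0.0237).

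Icam1, the integrin ligand that leukocytes grip and that keratinocytes and leukocytes express too, had the smallest change of the class. It was at 1091, 905, 1153, 697 and 855 in WT replicates 1 to 5, and at 746, 574, 508, 774 and 698 in Zfp36ΔARE replicates 1 to 5. WT replicate 4 lay within the Zfp36ΔARE range, and Icam1 fell to 70.2% of WT (-0.51 ± 0.16 SE, adjusted p = 0.0302), though not without WT replicates 1 and 3 (-0.31, adjusted p = 0.177) or without 1 of these or of Zfp36ΔARE replicates 2 and 3 (adjusted p up to 0.0721). P-selectin (Selp, -0.98, adjusted p = 0.0109) and Vcam1 (-0.82, adjusted p = 0.0174) fell as well, but Vcam1 did not pass without WT replicates 1 and 3 (-0.62, adjusted p = 0.0936). The log2 ratio of Vcam1 to Cdh5 was -1.93 ± 0.34 (SD) in WT and -1.86 ± 0.45 in Zfp36ΔARE libraries (exact permutation test, p = 0.786, adjusted p = 0.905), so no change of Vcam1 relative to Cdh5 was detectable.

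Per length, the levels of the members spanned a wide range in WT skin. The highest were Thbs1 at 46.2 ± 30.5 (SD), Hif1a at 29.6 ± 5.5 and Plvap at 29.1 ± 5.4 FPKM. Next came Vegfa at 28.5 ± 7.1 and Pecam1 at 24.2 ± 8.1 FPKM. Neighbors in this order did not differ by more than the larger of their SDs. The lowest were Notch4 at 1.05 ± 0.26, Sox17 at 0.945 ± 0.261 and Prox1 at 0.423 ± 0.151. In Zfp36ΔARE skin Vegfa was at 26.0 ± 0.8, above Pecam1 at 11.3 ± 2.1 and Plvap at 14.95 ± 2.2. Members with the heptamer had a median log2 fold change of -0.64 (n = 15) and those without it -0.92 (n = 25), a description without a test.

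Other genes of the same pathways were taken from lists, and the genes named here are those with the most counts unless stated. Each list is to be read beside the 19.1% of all genes that fell and the 15.3% that rose. Of 30 other endothelial genes, 21 fell and 3 rose, with a median of -0.82. The caveolar gene Cav1 (-1.003) and the sialomucin Cd34 (-1.10), which are not confined to endothelium, fell (adjusted p = 0.00403 and 0.00400). The ephrin gene Efnb2 rose (0.33, adjusted p = 0.0405). Efnb2 stood at 31.6 FPKM in WT, beside 10.8 for Cdh5, and which cells made it was not tested. The other genes that rose, named after their values were seen, were Tspan7 (0.52) and Heyl (0.82). Of 9 other lymphatic genes tested, 7 fell, with a median of -0.72, among them Stab1 (-1.12), Mmrn1 (-1.03) and Itga9 (-0.67). Stab1 was at 18.2 FPKM in WT, beside 0.423 for Prox1. As for Lyve1, the part of macrophages and other cells in these values was not tested. Of 13 genes tied to pericytes and smooth muscle, the mural cells around vessels, 9 fell, with a median of -0.81. The 9 include Pdgfb (-0.64), which encodes a ligand that acts on mural cells and is not a marker of them. The intermediate filament gene Des, which skeletal muscle also expresses, was among the 9 as well (-1.28). Smooth muscle actin Acta2 (-0.21, adjusted p = 0.290) and Notch3 (0.09, adjusted p = 0.431) did not pass.

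Lists tied to hypoxia or to the restraint of vessels had medians nearer to 0. Of 15 genes of the HIF pathway, targets and components together, 3 fell, with a median of -0.12. The most counted were Ldha (-0.53, which fell), Egln3 (-0.06) and Ndrg1 (0.23). The other genes of this list that fell, named after their values were seen, were Epas1 (-0.59), which encodes a HIF subunit, and Bnip3 (-0.71). Of 10 inhibitors of angiogenesis, 3 fell, with a median of -0.14: Thbs2 (-0.82, adjusted p = 0.0115), Vash1 (-0.88, adjusted p = 0.00586) and Serpinf1 (-0.59, adjusted p = 0.0310), likewise named after their values were seen, while the most counted, Sparc (-0.01), Timp3 (-0.06) and Col18a1 (0.17), did not pass. Of 10 other angiogenic ligands, 3 fell, with a median of -0.31, and Angptl2 (-0.66) was among them with Hgf (-0.98) and Fgf2 (-0.58), named after their values were seen, while the much counted Cxcl12 (-0.33) and Angptl4 (-0.28) were not. For 9 leukocyte partners of the adhesion genes, the cells that made them were not tested. Itgb1 and Cd44 stood at 70.8 and 66.9 FPKM in WT, beside 21.3 for Itgb2. Of the 9, 5 fell, with a median of -0.46. They were the integrin genes Itgb1 (-0.34) and Itgb2 (-1.48), among the most counted, and, named after their values were seen, Itgam (-1.52), Itga4 (-1.42) and the selectin ligand gene Selplg (-0.99), whereas Cd44 (-0.06) did not pass.

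Vessel genes were not the only genes from outside the epidermis at lower levels, and all genes of the lists in this comparison had enough counts to be tested. Of 10 fibroblast genes, 7 fell (median -0.69), with a summed level of 6395 to 13500 CPM in WT and 3631 to 10060 CPM in Zfp36ΔARE libraries. Of 10 adipocyte genes, 8 fell (median -1.02), with 2217 to 4543 CPM in WT and 1568 to 2033 CPM in Zfp36ΔARE libraries. Of 12 skeletal muscle genes, 11 fell (median -1.42), with 9114 to 42960 CPM in WT and 5458 to 11390 CPM in Zfp36ΔARE libraries. Mast cell genes fell in 6 of 8 (median -1.69), with 225 to 567.5 CPM in WT and 124 to 157 CPM in Zfp36ΔARE libraries, and 1, Kit, rose. Among 6 Schwann cell genes 3 fell, with a median of -0.46 and levels of 185 to 288 CPM in WT and 127 to 154 CPM in Zfp36ΔARE libraries.

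Epidermal and lymphocyte genes gave other values. Of 8 basal keratinocyte genes, 3 fell (median -0.23), and of 7 suprabasal keratinocyte genes 1 fell and 1 rose (median -0.37), summing to 12350 to 18270 CPM in WT and 7601 to 16660 CPM in Zfp36ΔARE libraries. None of 7 T cell genes passed in edgeR (0 at an unadjusted p under 0.05, median 0.03), and they summed to 24.4 to 44.5 CPM in WT and 25.9 to 35.8 CPM in Zfp36ΔARE libraries. Of 5 neutrophil genes tested, 1 fell (median -0.24), with 49.9 to 197 CPM in WT and 42.9 to 714 CPM in Zfp36ΔARE libraries, and Ly6g, Mpo and Elane were too low to be tested. All 11 hair shaft genes were higher in every Zfp36ΔARE library than in any WT library, and 3 of them passed the test.

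Cdh5 was also set against 1 fibroblast gene. The log2 ratio of Cdh5 to Pdgfra, a receptor of dermal fibroblasts, was -1.56 ± 0.46 (SD) in WT and -1.58 ± 0.26 in Zfp36ΔARE libraries (difference -0.03, exact permutation test, p = 0.905, adjusted p = 0.905). Pdgfra itself fell (-0.88), and other fibroblast genes ranged from -0.15 for Col1a2 (adjusted p = 0.751) to -1.53 for Pi16 (adjusted p = 0.00401), both named after their values were seen, so the ratio holds for this pair of genes and not for fibroblast genes in general. The part of the skin's makeup in the lower vessel genes was not tested beyond these values and the covariate given above.

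**Figure D5:**
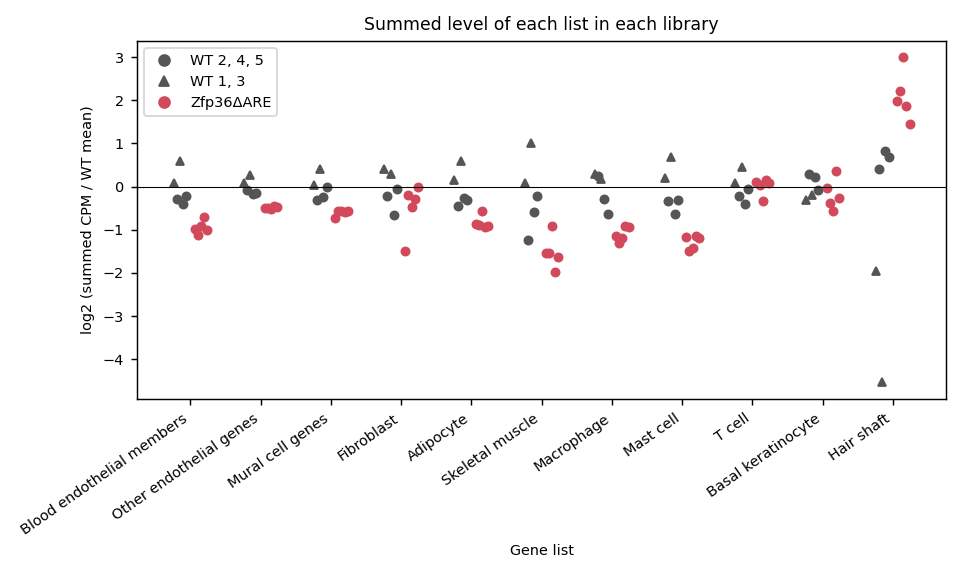
Log2 of the summed CPM of each gene list over its WT mean (vertical axis) in each library, for WT 2, 4 and 5 (gray circles), WT 1 and 3 (gray triangles) and Zfp36ΔARE (red). In Zfp36ΔARE libraries the blood endothelial members lie below all WT libraries, as do the other endothelial, mural, adipocyte, macrophage and mast cell lists, while hair shaft genes lie above, with WT 1 and 3 the lowest.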

How the data were processed

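Total RNA from back skin was sequenced on Illumina instruments, and the authors discarded low-quality reads, aligned with STAR 2.5.2b to mm10, counted with featureCounts (Subread 1.5.0-p1), deposited raw counts per gene and tested them with DESeq2. Strand and multi-mapping settings are not given in the sources used here, so counts of overlapping genes are uncertain. Rows without a gene name (2, with 7.38e-05% of the counts) were left out.

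Here the deposited counts were scaled with TMM factors and filtered with filterByExpr (edgeR 4.0.16, R 4.3.3), and edgeR fitted the quasi-likelihood model (robust, genotype only) to 15543 genes, with Benjamini-Hochberg adjustment over all of them. A gene was called at an adjusted p under 0.05, and at a fold over 2 where stated. The alternatives were DESeq2 1.42.0, limma 3.58.1 (voom), other scalings and filters, glmTreat, a replicate block, a hair shaft covariate and libraries left out. Fragments per kilobase use the length given with the counts. Levels at small counts carry counting error, and each library is 1 mouse. Scripts were tested on simulated data.

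Members and lists were chosen with earlier results of these data known. Values by library are given for Cdh5, Pecam1, Kdr, Prox1, Lyve1, Flt4, Vegfa, Vegfb, Pgf, Zfp36, and the members with the lowest and highest fitted change of each class. Of other pathway lists up to 3 genes with the most counts are named, plus genes behind a count of 5 or fewer, and Pdgfb.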

Additional observations from a re-analysis of the deposited data

Results flagged for a closer look

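Among 80 groups of 5 libraries (40 members in 2 genotypes), 7 held a library far from the other 4 by Dixon's criterion, where chance gives about 4. WT replicate 3 was above the other WT libraries in 4 of them. Its normalized count of Robo4 was 521.0 (the others 230.1 to 308), of Flt4 539.3 (268 to 345), of Angpt2 224.5 (132 to 147) and of Dll4 186.7 (74.3 to 90.3). Zfp36ΔARE replicate 4 was above the rest of its group in 3, with 94.8 for Icam2 (62.0 to 67.0), 212.3 for Erg (129.6 to 148) and 105.5 for Dll4 (62.0 to 68.9).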

How the results depend on the processing

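Of the 40 members, 12 were called lower with a fold over 2, and 28 lower and 1 higher at an adjusted p under 0.05. The same counts came from edgeR with DESeq2's size factors, with non-robust dispersions, without a filter, and with a minimum of 10 counts in each library. DESeq2 gave 12, 31 (with Pdpn, Vegfb and Angpt2) and 1, limma-voom 9, 29 and 1, and upper-quartile scaling 15, 29 and 1. Over all genes, with a fold over 2 in either direction, the main fit called 1292 of 15543. The settings with the same member counts called from 1064 to 1377 genes. DESeq2 called 1584 of 20059, limma-voom 1238 of 15543 and upper-quartile scaling 1363 of 15543. For these alternatives, shares of all genes at an adjusted p alone were not computed. A test against a fold of 2 itself (glmTreat) called 0 (smallest adjusted p 0.865, and 1 at an unadjusted p under 0.05). Without both WT 1 and WT 3 the counts were 1, 18 and 0, and with the hair shaft score, or with Zfp36ΔARE replicate 1 alone, whose spread was assumed equal to that of WT, 0, 0 and 0. No setting called a member higher with a fold over 2. Leaving out each library in turn gave 5 (without WT replicate 3: Nos3, Tek, Sox18, Lyve1 and Sele) to 16 called lower, 20 (without Zfp36ΔARE replicate 2) to 31 lower at an adjusted p under 0.05, and 0 (without Zfp36ΔARE replicate 2) to 1 higher. Over all genes, calls with a fold over 2 either way ran from 839 (without WT replicate 3) to 1521 (without WT replicate 4). Without Zfp36ΔARE replicate 2, 9 members missed the threshold that they passed with all libraries, and without WT replicate 1, 6 did.

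Same-numbered libraries did not deviate together (correlations of -0.09, -0.18, -0.11, 0.09 and -0.11 for replicates 1 to 5). These values gave no sign that the numbers pair the mice, but they cannot exclude it. With the replicate block 9, 21 and 1 members passed. An exact sign-flip permutation test over such pairs, which cannot go below p = 0.0625, gave an adjusted p of 0.25 for the ratios of Vegfa to Cdh5 (0.77) and to Vegfb (0.42).

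With the hair shaft score the class medians were -0.46 (adhesion), 0.0835 (ligands), -0.50 (lymphatic), -0.24 (receptors), -0.38 (surface), -0.41 (transcription factors) and -0.35 (all members). Egfl7 (0.0624), Nrp2 (-0.0056), Vegfa (0.23), Vegfc (0.0835), Dll4 (0.16) and Hif1a (-0.0901) changed sign. Without both WT 1 and WT 3 the medians were -0.17 (ligands), -0.75 (lymphatic), -0.49 (receptors) and -0.63 (transcription factors), and Vegfa (0.0667) and Hif1a (-0.013) changed sign. With Zfp36ΔARE replicate 1 alone the medians were -0.59 (co-receptors) and -0.75 (lymphatic), and Thbs1 was 0.14. The cause of these shifts was not tested. Leaving out 1 library gave -0.62 to 0.0878 for Thbs1 (highest without WT replicate 2) and -0.23 to 0.0206 for Vegfa (highest without WT replicate 3).

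The ratio of Prox1 to Cdh5 was 0.0843 with a pseudocount of 5, 0.0212 without both WT 1 and WT 3 and -0.16 to 0.16 leaving out 1 library, and Cdh5 to Pdgfra was 0.0212 and -0.14 to 0.12 in the latter cases. Vegfa to Cdh5 was 0.69 without both WT 1 and WT 3 and 0.72 to 0.85 leaving out 1 library, and Vegfa to Vegfb 0.28 and 0.36 to 0.47, with adjusted p from 0.0317 to 0.0714. Vcam1 to Cdh5 ran from -0.0389 to 0.27. Counts as low as 14 (Prox1) limit what single libraries can show.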
